A study of Mus musculus with 143 samples.

Results

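The cytosolic ribosomal proteins, the proteins that with ribosomal RNA build the large (Rpl) and small (Rps) subunits of the ribosome, were followed through single microglia of the postnatal mouse cerebellum. Members were chosen by name alone: every gene row of the count table named Rpl or Rps with a number and at most one of the letters a, x, y or l, plus the stalk proteins Rplp0, Rplp1 and Rplp2 and the laminin-receptor homologue Rpsa. The rule found 84 of 23337 gene rows, 51 of the large and 33 of the small subunit. Of these, 81 had a pooled level of at least 10 CPM (counts scaled to 1000000 gene counts), Rpl39l lay under 10, and the copies Rpl10l and Rpl3l had no count. The cells were 143 microglia of wild type C57BL6N mice at postnatal day 7, from the cerebella of pooled male animals, sorted as CD45low CD11b+ Gpnmb+ Clec7a+ and sequenced with Smart-seq2, which reads along whole transcripts and carries no molecular identifiers. The age and the series title give postnatal day 7, although the name of the pooled library contains the word adult. There is 1 group and 1 pool, its cells cannot be assigned to animals, and 95 cells sat on plate 1 and 48 on plate 2. Cells are therefore not replicates, no test between groups of cells was possible, and each comparison is a description, shown for each plate apart.

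Ribosomal proteins are needed in nearly equal numbers, since each ribosome holds about one of each, and their mRNAs are among the most abundant of most cells. Many of these mRNAs begin with a run of pyrimidines, the 5′ terminal oligopyrimidine (TOP) tract, through which growth signals passing the kinase mTORC1 act on their translation. Smart-seq2 measures the amount of mRNA only, so nothing here bears on translation or on the number of ribosomes.

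The start sites are shown because the pyrimidine tract is the sequence feature for which this gene group is best known. RefSeq promoter windows (build GRCm38.p6) were found for 63 of the 84 members, with 75 annotated starts. The lines below run 5′ to 3′ from 30 bases before the annotated start to 20 after it, with the longest pyrimidine run that begins with C in capitals.
Rps27: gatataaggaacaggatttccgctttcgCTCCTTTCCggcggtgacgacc
Rps18: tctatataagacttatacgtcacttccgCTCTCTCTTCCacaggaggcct
Rpl28: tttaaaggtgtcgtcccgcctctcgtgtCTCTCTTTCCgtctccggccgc
Rplp2: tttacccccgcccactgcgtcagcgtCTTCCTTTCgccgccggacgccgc
Rpl38: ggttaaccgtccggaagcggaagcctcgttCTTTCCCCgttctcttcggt
Rps6: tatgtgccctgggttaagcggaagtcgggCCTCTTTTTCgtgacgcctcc
Rpl4: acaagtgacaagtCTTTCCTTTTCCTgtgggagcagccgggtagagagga
The windows are chr3:90213629-90213678 (minus strand) for Rps27, chr17:33955646-33955695 (minus) for Rps18, chr7:4792935-4792984 (plus) for Rpl28, chr7:141447621-141447670 (plus) for Rplp2, chr11:114668550-114668599 (plus) for Rpl38, chr4:86857348-86857397 (minus) for Rps6 and chr9:64173357-64173406 (plus) for Rpl4. They were picked to show the tract in members of both subunits and of the stalk, with Rpl4, the most abundant member, as a gene whose tract lies wholly upstream of the annotated start.

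A C followed by at least 4 pyrimidines stood at the annotated start itself in 17.3% of the member starts, against 2.51% of all 32851 starts in the table. Within 20 bases of the start, a window chosen after seeing the data because annotated starts can be off by a few bases, the shares were 69.3% and 45.9%. In the wider window from 250 bases before to 50 after the start, on both strands, GGGCGG, the core of the GC box, was found at 60% of member starts and 35.7% of all starts. CCGGAAG, a core sequence of ETS factors, was found at 36% and 8.86%, and AAGATGG, part of the YY1 element, at 16% and 6.34%. The last 3 letters of CCGGAAG can be the first of AAGATGG, so these can overlap. A match is a description of the letters, and no binding was measured.

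As a pool, the cells carried the labelled identity. All 10 microglial markers were measured and 8 of them were read in at least 90% of cells, at a summed pooled level of 21145 CPM, and 8 of the 10 markers of proliferative-region-associated microglia (PAM), Spp1, Cd9 and Gpnmb leading, were read as widely. Summed levels were 546 CPM for border macrophage markers, 98.7 for oligodendrocyte, 46.3 for astrocyte and 9.67 for neuron markers, and the 5 lymphocyte markers were at 0. A cell had between 271190 and 1226521 counts, spike-ins included, with a median of 760690, a median of 3255 genes detected, and no 2 cells had identical counts. Intervals below cover counting error only, since reads of amplified cDNA are not independent molecules.

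Ribosomal protein mRNA made up 1.80% of all gene counts, 1861394 of 103256398, with an exact 95% binomial interval of 1.80 to 1.81. The share was 1.80% on each plate. In single cells it ran from 1.18% to 2.71% with a median of 1.77%, and the middle 50% of cells lay between 1.56% and 2.00%. Its coefficient of variation (CV, the SD over the mean) was 17.3% over cells. Counting error alone, at the mean number of member counts per cell, gives 0.876%. The median was 13241 member counts per cell. Cells thus differed in this share by far more than counting error.

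The most abundant member was Rpl4, a protein of the tunnel through which the new chain leaves the ribosome, at 988 pooled CPM, with cells from 166 to 2044 and a median of 961. Rplp0, the base of the stalk that receives the elongation factors, followed at 787 pooled CPM, and no cell lay below 227. Others of high level were the mRNA-entry protein Rps3 at 624, Rps19 at 567, Rps2 at 528, Rps14 at 522, Rpl13 at 491 and Rpl10 at 479. The 10 most abundant members held 34.5% of all member counts. Full-length reads also count long transcripts more often, and per kilobase of exon the order changed: Rps19, which acts in the maturation of the small subunit, led at 896 CPM per kilobase, and Rps14 stood at 875, Rpl41 at 802 and Rps18 at 675. Rpl4 stood at 642 on that scale, Rpl13 at 630, Rpl32 at 623, Rps9 at 620 and Rpl10 at 600. The median over the members was 198 CPM per kilobase, so the counts of these genes were far from equal even per length. Sequence shared with copies and the choice of transcript, both described below, limit this scale. Their part in the spread was not tested.

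The order of the levels was nearly the same on both plates, with a Spearman rho of 0.994 across the members. Among members with at least 100 pooled CPM the plates differed by -0.32 to 0.30 on the log2 scale, with Rpl8 lowest and Rps20 highest on plate 2 relative to plate 1. Across single cells, the profile of a cell over the members correlated with that of the pool at a rho between 0.626 and 0.934, with a median of 0.850. The same genes led in most cells.

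**Figure D1:**
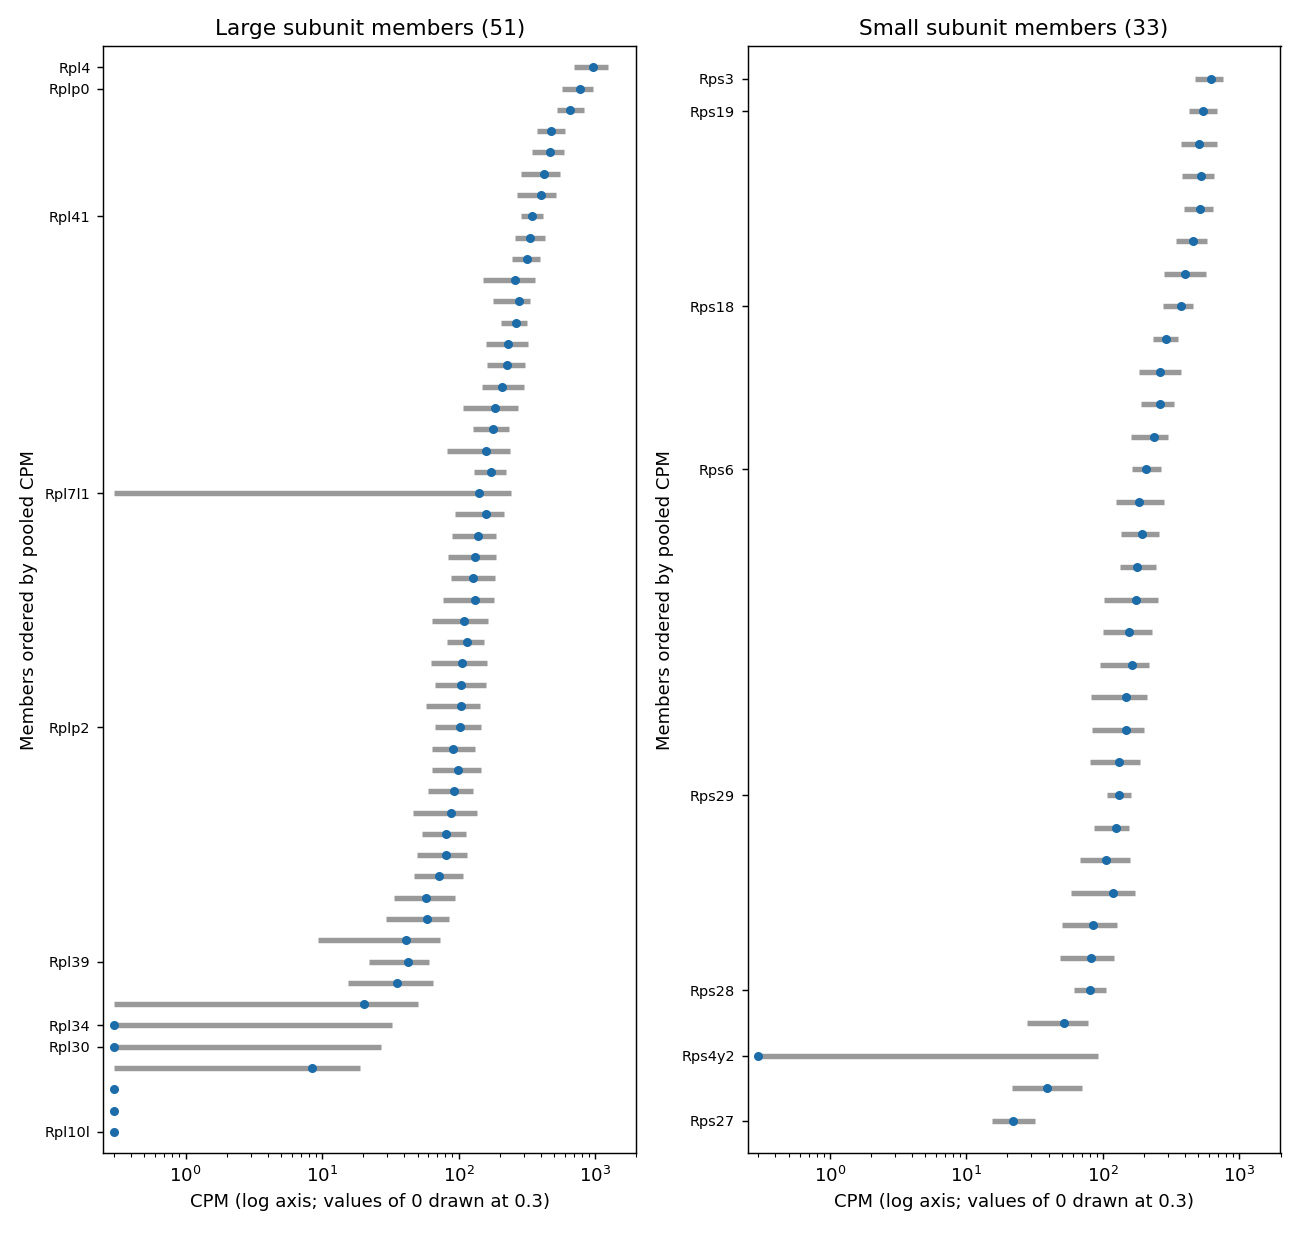
Levels of the 51 large and 33 small subunit members in 143 cells, in CPM on a log axis. Points are medians over cells, bars run from the lower to the upper quartile, and values of 0 are drawn at 0.3. Members are ordered by pooled CPM and a few are named. Most members have narrow bars, while those of Rpl7l1, Rpl34, Rpl30 and Rps4y2, among others, reach 0 at the lower quartile.

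Of the 84 members, 28 were read in every cell and 73 in at least 90% of cells. Another 5 were read in 50% to 90% of cells and 6 in fewer. These 6 were Rpl34 at 44.1%, Rpl30 at 48.3%, Rps4y2 at 37.8%, Rpl39l at 1.4%, and Rpl10l and Rpl3l with no read in 143 cells, which allows a share of up to 2.1% of cells with a read. Rpl10l and Rpl39l are known as copies used in the male germ line, and Rpl3l as a copy of striated muscle. Rps4y2 is listed in RefSeq as a synonym of Rps4l and in GENCODE as a transcribed processed pseudogene on chromosome 6 (GRCm38 148354656 to 148355598, plus strand), so its 49.8 pooled CPM are not those of a Y-linked gene.

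Copies with an l suffix differed in how they stood to the gene they are named after. Rps27l was read more than Rps27, with 166 against 26.3 pooled CPM, and cells ranged from 0 to 397 for Rps27l, with a median of 156, against 1.34 to 152 for Rps27, with a median of 21.8. Rpl22l1 stood at 29.6 CPM in 62.9% of cells and Rpl22 at 51.1 CPM in 81.8%. Rpl7l1, a relative of Rpl7, was at 164 CPM in 67.8% of cells, while Rpl7 was at 404 CPM in 98.6%. Rpl39l was at 0.378 and Rpl39 at 42.3 CPM.

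Ribosomal protein genes have many near-identical copies in the genome, which limits these levels. In the mouse GENCODE transcripts a median of 53.2% of a member's 50-base windows also occurred in another gene, and 47 of the 84 shared over 50% of theirs. For Rps27 it was 98.6%, so its low level is uncertain. For 3 members, Rpl39l and Rpl3l among them, it was 0. The rho of the level with this share was 0.023 over 84 genes, and 0.15 for the level per kilobase. Whether reads were lost to copies was not tested. In addition, 30 members carry 58 small nucleolar RNA genes inside their bounds, and the strand setting of the counting was not given in the sources used here.

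Single members varied little between cells for their level. For each gene the squared CV over cells was set against the running median of genes of like mean CPM, among 7789 genes read in at least 10% of cells, and the log2 of that ratio is called the excess of variability. By construction its median is 0 over all genes. The median of the 81 members ranked was -2.10 (-2.03 on plate 1 and -1.94 on plate 2). All 81 members ranked lay below the running median, as did 49.7% of all genes, and 76 lay in the lowest 10% of genes. On plate 2 alone 80 of 81 were below it. Genes were matched by CPM and not by transcript length, and the part of length in the excess was not tested.

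**Figure D2:**
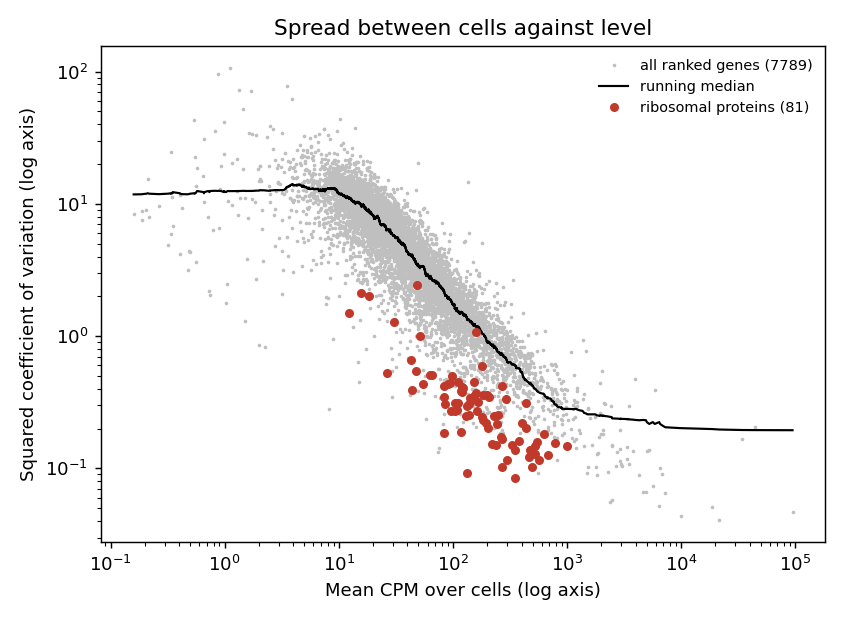
Squared coefficient of variation against mean CPM, both on log axes, for 7789 genes (grey), their running median (line) and 81 ribosomal protein genes (red). All red points lie below the line, and the nearest to it is Rpl7l1.

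The steadiest members for their level were the short small subunit proteins Rps29 (excess -3.83), Rps27 (-3.59) and Rps28 (-3.54), followed by the large subunit proteins Rpl39 (-3.38) and Rpl37 (-3.01). Rps29 was read in all 143 cells, from 43.3 to 265 CPM with a median of 130.9, a CV of 30.5%. Rps27, although at only 26.3 pooled CPM, was also read in every cell, with the reservation on its copies given above. Rpl41, the smallest ribosomal protein, had a lower CV, 29.1%, with cells from 128.9 to 699 CPM and a median of 343. At the other end stood Rpl7l1 (excess -0.13), Rps4y2 (-0.51), Rpl8 (-0.78) and Rpl7a (-0.80). Rpl7l1 ranged from 0 to 792 CPM with a lower quartile of 0, so it was read strongly in some cells and not at all in others.

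Members varied together from cell to cell. If they varied independently, the variance of their summed CPM would equal the sum of their own variances. It was 7.73 times that sum (7.56 on plate 1 and 8.21 on plate 2). The large subunit members alone gave 4.11 times and the small subunit members 4.39 times. For genes that vary together this measure grows with their number, so sets of unlike size cannot be compared by it. It was not taken for a set of other genes. For the 1770 pairs among 60 members with at least 100 pooled CPM, the median rho within plate was 0.127 on plate 1 and 0.139 on plate 2, against 0.012 and 0.015 among 1502 other genes of that level. Single pairs were thus weakly related, and the sum over many members carried the shared part. All these values come from the same 143 libraries and share depth and scaling.

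Each of these 60 members was also set against the share of the other members in the same cells. The rho was above 0 on both plates for 59 of 60 (98.3%), against 36.1% of the 1502 other genes, with a median of 0.329 over members and 0.028 over other genes. Members took 52 of the first 100 places. Rpl41 led with 0.49 on plate 1 and 0.65 on plate 2, then Rps19 with 0.57 and 0.51. The exception was Rpl7l1, at -0.10 on each plate.

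The other genes that went along most with the ribosomal protein share were led by Ncl, nucleolin of ribosome biogenesis, at a mean rho over plates of 0.42. Then came Ppia (0.39) and Cfl1 (0.38), for the cyclophilin A chaperone and the actin-severing cofilin, and Phgdh (0.37), the first enzyme of serine synthesis. Cox6b1, Nme1, Tmsb4x, Npm1, Fau and Ybx1 followed at 0.35 to 0.32, and of these Fau encodes the ribosomal protein eS30 and Npm1 the nucleolar protein nucleophosmin. The lowest values belonged to the lysosomal proteases Ctsb (-0.48) and Ctsd (-0.45), then Pros1 (-0.35), Cd83 (-0.34), H2-D1 (-0.34), Spp1 (-0.33), Lag3 (-0.32), P2rx4 (-0.31), Hexa (-0.30) and Pnpla7 (-0.29). Shares of one total compete, and these 10 genes held 9.02% of all gene counts. With all 10 left out of the total, Ctsb was at -0.45, Ctsd at -0.43 and Spp1 at -0.24.

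The counts of small over large subunit members stood at 0.780 (exact interval 0.778 to 0.782). In cells the ratio ran from 0.546 to 0.987, with a median of 0.781 and a CV of 10.6%, where counting error gives 1.83%.

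Cells were then put into cycle classes by genes that are not members. A cell with at least 8 of 31 G2/M genes on (CPM of at least 10) was called G2/M class, one with at least 6 of 24 S genes on was called S class, and the rest non-cycling. These are ranges of a score, and 31 cells lay within 2 genes of a limit. They held 29, 34 and 80 cells. The ribosomal protein share was 1.76% in non-cycling cells, 1.84% in the S class and 1.86% in the G2/M class. The log2 ratio to non-cycling cells was 0.065 for S (counting interval 0.060 to 0.070, 0.034 on plate 1 and 0.14 on plate 2) and 0.077 for G2/M (0.072 to 0.082, 0.049 and 0.15 by plate). Single cells overlapped widely. The share ran from 1.18% to 2.71% in non-cycling cells with a median of 1.77%, from 1.34% to 2.65% in the S class with a median of 1.88%, and from 1.37% to 2.35% in the G2/M class with a median of 1.82%. On plate 1 the median of the S class, 1.73%, lay under that of non-cycling cells, 1.77%.

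**Figure D3:**
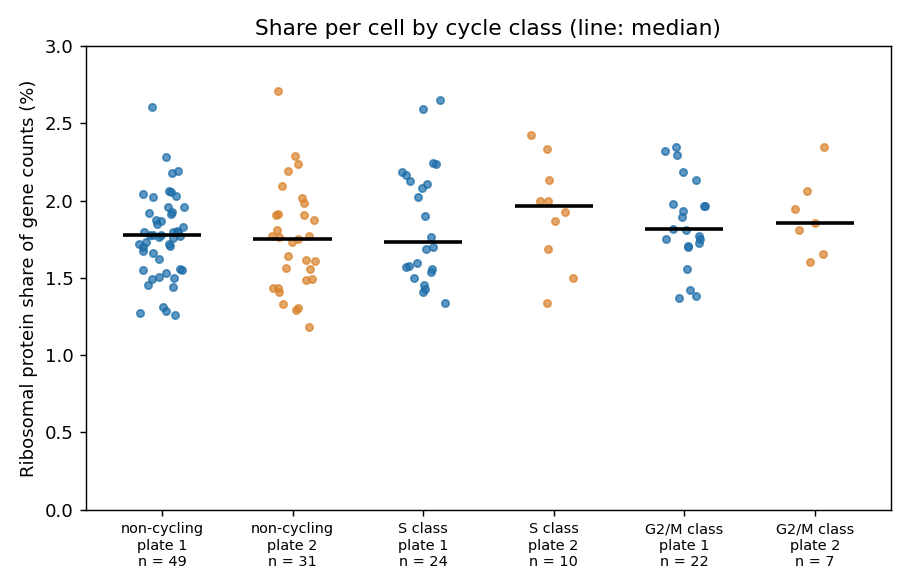
Ribosomal protein share of gene counts (%) in each cell, by cycle class and plate, with the median as a line. All 6 clouds overlap, and the medians lie between 1.73% and 1.96%.

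Cells of the classes differed in other ways, whose part in these ratios was not tested. The median number of genes detected was 2945 in non-cycling, 3503 in S and 3761 in G2/M cells. The ribosomal RNA precursor Rn45s took 9.55%, 9.08% and 8.80% of gene counts. The summed PAM markers stood at 69920, 66306 and 50004 pooled CPM, and the summed border macrophage markers, 3 of 7 at 0 in the pool, at 611, 571 and 345. Amounts were also read against the spike-in RNA of each well. Ribosomal protein counts per spike-in count were 0.370 in non-cycling, 0.491 in S and 0.543 in G2/M cells, log2 ratios of 0.41 and 0.55, and all gene counts gave 0.34 and 0.48.

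Single members seldom moved by much. A gene was called higher or lower where its pooled CPM, with 1 added, differed by at least 1.5-fold in that direction on each plate, among the 7616 genes at 10 pooled CPM or above. In the S class, 0 of 81 members were called higher and 0 lower, while 8.19% of all genes were called higher and 7.67% lower. In the G2/M class 1 member was called higher and 0 lower, against 14.2% and 9.86% of all genes. Beside that 9.86%, 3 of 4 border macrophage and 4 of 10 PAM markers were called lower in G2/M, and 0 of either in the S class. Without the 14 cells with the fewest genes, an alternative added after seeing the data, 0 members were called in the G2/M class, against 14.2% of all genes higher and 10.0% lower. Well-read genes are called less often, so the same was counted at 100 pooled CPM or more, a level added after seeing the data. There 0 of 60 members were called in the S class, where 2.69% of genes were called higher and 1.15% lower. In the G2/M class 1 of 60 was called higher and 0 lower, against 7.68% and 5.25%. The median log2 ratio over the 81 members was 0.079 for S and 0.086 for G2/M, and 0.050 and 0.081 over all genes.

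At 100 pooled CPM or more, members with high ratios in the S class were Rps24 (0.43), Rps13 (0.37), Rpl29 (0.35) and Rpl5 (0.32), and in the G2/M class Rps13 (0.43), Rps15 (0.42), Rpl21 (0.42) and Rps27l (0.41). Lowest in the S class were Rps20 (-0.34), Rpl11 (-0.22), Rpl10 (-0.21), Rps14 (-0.19) and Rpl3 (-0.18), and in the G2/M class Rpl10 (-0.36), Rpl10a (-0.32), Rps7 (-0.21), Rps4x (-0.20) and Rps25 (-0.11). None of these was called. Rpl10, which closes the maturation of the large subunit, had 406 pooled CPM in G2/M and 520 in non-cycling cells and lay below 0 on both plates in both classes.

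The ratio of small over large subunit counts was 0.754 in the S class, 0.783 in non-cycling and 0.805 in the G2/M class. The order was the same on both plates, with 0.765, 0.780 and 0.803 on plate 1 and 0.724, 0.787 and 0.813 on plate 2. Cells of the S class ran from 0.546 to 0.980 and those of the G2/M class from 0.672 to 0.925, so the groups overlapped.

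RNA content was taken as gene counts per spike-in count, and the cells of each plate were cut into 3 equal groups by it. These held 48 RNA-poor, 48 middle and 47 RNA-rich cells. The ribosomal protein share was 1.78%, 1.82% and 1.81%. The log2 ratio of RNA-rich over RNA-poor cells was 0.019 (counting interval 0.014 to 0.024), but 0.059 on plate 1 and -0.067 on plate 2, so the plates went opposite ways. Over all 143 cells the rho of the share with RNA content was 0.025 (0.12 on plate 1 and -0.12 on plate 2). With the number of genes detected the rho of the share was 0.26 (0.33 on plate 1 and 0.11 on plate 2). Among non-cycling cells that rho was 0.12 (0.36 and -0.16 by plate). The amount followed the RNA content: ribosomal protein counts per spike-in count stood at 0.309 in RNA-poor and 0.596 in RNA-rich cells, log2 0.95, while all gene counts gave 0.93, and over cells the rho between them was 0.857. Both measures divide by the same spike-in count, so part of this rho is shared by construction. All gene counts include the members and Rn45s and set the groups, so their 0.93 follows from the cut. The 0.95 adds only the share ratio of 0.019 to it. By plate, members and all gene counts gave 0.95 and 0.89 on plate 1 and 0.95 and 1.01 on plate 2. RNA-poor and RNA-rich cells also differed in genes detected, with medians of 2598 and 3686, and in the Rn45s share, 9.91% and 8.70%. The summed border macrophage markers stood at 751 and 395 pooled CPM. Of the 4 such markers at 10 CPM or more, 2 were called lower, beside 7.29% of all genes. Cycle genes differed too: 22 of 24 S and 27 of 31 G2/M genes were called higher in RNA-rich cells, beside 12.6% of all genes. The part of these differences in the results by RNA content was not tested.

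**Figure D4:**
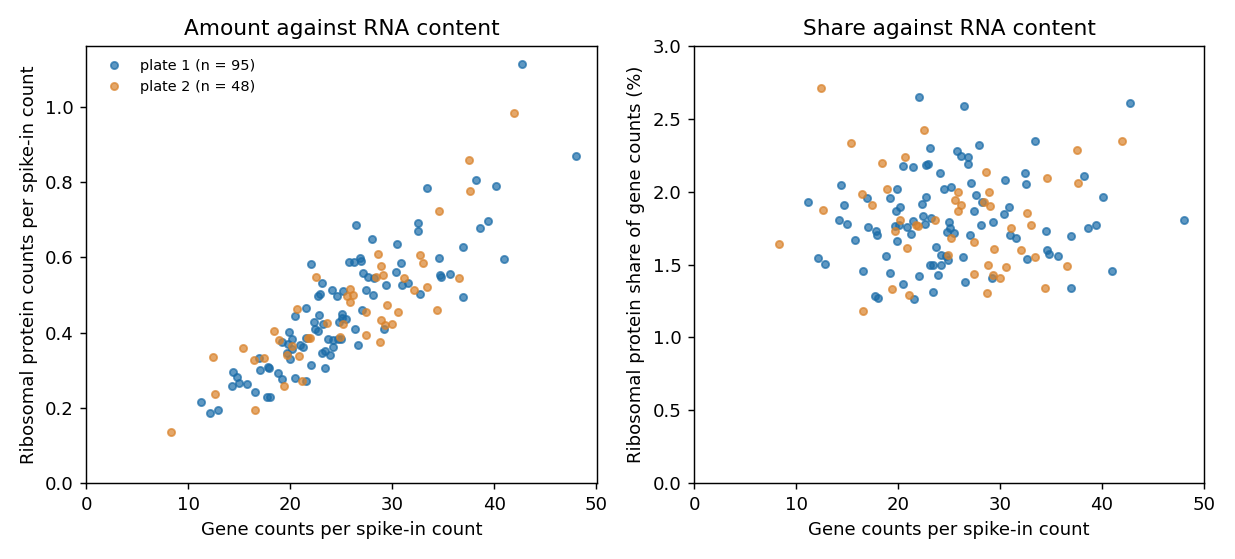
Ribosomal protein counts per spike-in count (left) and share of gene counts in % (right) against gene counts per spike-in count, 1 point per cell, by plate. The amount climbs with RNA content at a rho of 0.857, and the share shows no slope common to both plates (rho 0.12 and -0.12).

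Between RNA-rich and RNA-poor cells 1 of 81 members was called higher and 0 lower, against 12.6% and 7.29% of all genes. At 100 pooled CPM or more it was 1 of 60 and 0, against 6.4% and 2.75%. The member was Rpl7l1 (chromosome 17, GRCm38 46773907 to 46782672, minus strand). RNA-poor cells ranged from 0 to 792 CPM with a median of 0, and RNA-rich cells from 0 to 584 with a median of 153. It was read in 45.8% of RNA-poor and 85.1% of RNA-rich cells, and in 43.8% and 85.1% with each cell thinned to 250000 gene counts. The pooled levels were 128.8 and 202 CPM, log2 0.65 (0.63 on plate 1 and 0.67 on plate 2). Among non-cycling cells alone Rpl7l1 came to 0.50, short of the limit, and the 1 of 81 members called there was Rpl9 at 0.77, which over all cells was at 0.22. Among non-cycling cells 13.3% of all genes were called higher and 8.88% lower. At 100 pooled CPM or more, Rpl29 (0.45), Rpl8 (0.37) and Rpl12 (0.36) were also among the highest, and Rps7 (-0.26), Rpl7a (-0.23), Rpl10 (-0.19) and Rpl35 (-0.19) among the lowest. None of these 7 was called.

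**Figure D5:**
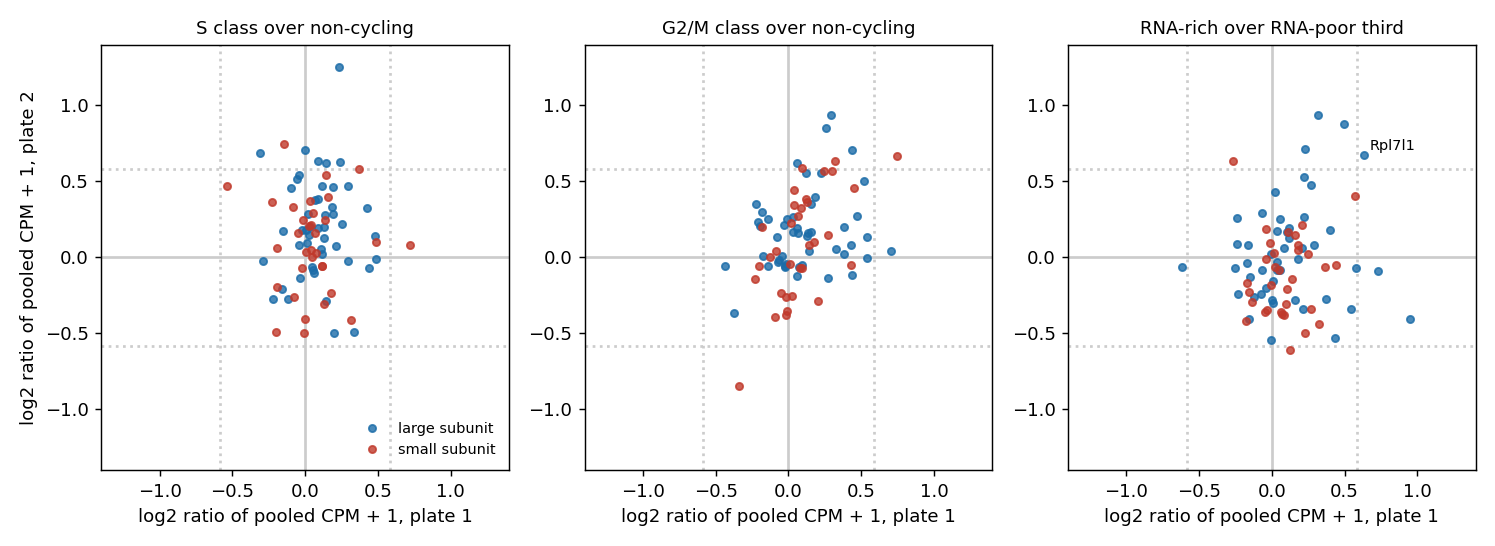
Log2 ratio of pooled CPM + 1 for 81 members, plate 1 against plate 2, in each of the 3 comparisons. Dotted lines mark 1.5-fold, and Rpl7l1, called with RNA content, is named. Most points lie inside the dotted lines.

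Among the genes that build ribosomes, a larger number was past the limit than among the members. These genes were less widely read, with a median of 34.3% of cells over the 38 listed. Of the 38, 2 were read in at least 90% of cells, as were 73 of the 84 members. Well-read genes are called less often, and the part of level in the difference from the members was not tested. Of 36 biogenesis genes measured at 10 pooled CPM or more, 11 were called higher and 2 lower in the S class, 10 and 1 in the G2/M class, and 11 and 0 in RNA-rich cells, with median log2 ratios of 0.60, 0.43 and 0.63. The shares called higher were 30.6%, 27.8% and 30.6%, beside 8.19%, 14.2% and 12.6% of all genes. Nop56, of the box C/D particles that modify ribosomal RNA, was at 70.9 pooled CPM in non-cycling, 257 in S and 276 in G2/M cells, and at 50.9 in RNA-poor and 209 in RNA-rich cells. Ncl, also called higher in G2/M, had 183 pooled CPM in non-cycling and 344 in G2/M cells, log2 0.90 (0.67 and 1.47 by plate). Npm1 had 381 and 505 CPM and was not called. The list was chosen with earlier results of these data known, and the 3 comparisons share cells, since RNA-rich cells had higher summed levels of S genes (3220 against 605 pooled CPM).

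Of 34 translation factors, 0 were called in the S class, and 3 were called higher and 0 lower in each of the other comparisons, with medians of 0.16, 0.28 and 0.18. These 3 are 8.82% of the list, beside 14.2% of all genes in G2/M and 12.6% in RNA-rich cells. Eef1a1, the elongation factor that brings aminoacyl-tRNA, was at 2394 pooled CPM in non-cycling and 1962 in G2/M cells, and Eif5a at 1010 and 1470, neither called in G2/M. Eif5a was called higher in RNA-rich cells, at 1410 against 879 CPM. Of 74 proteins of the mitochondrial ribosome, 5 were called higher and 4 lower in S, 13 and 0 in G2/M, and 12 and 1 in RNA-rich cells, with medians of 0.12, 0.43 and 0.47. The shares called higher, 6.76%, 17.6% and 16.2%, lay near those of all genes, 8.19%, 14.2% and 12.6%. Mrpl42 stood at 170 CPM in G2/M and 91.96 in non-cycling cells (log2 0.88). Of 16 genes of the mTORC1 pathway, 0, 1 and 1 were called higher and 2, 1 and 1 lower, counts too small to set against those shares, and its leading genes Lamtor2, Rragc and Lamtor3 were not called in any comparison. None of the 4 further ribosome genes outside the naming rule was called, among them Fau at 253 CPM in non-cycling and 263 in G2/M cells.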

How the data were processed

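The deposited table holds raw counts per gene and cell, made by the authors, whose processing notes name HTSeq, STAR 2.5.3a, Trim Galore 0.4.3, Picard and the build mm10 with no order of use. The annotation and strand setting are not given in the sources used here. All 143 cells had passed the submitters' quality criteria, per the labels. Counts were used as deposited. CPM leaves out 92 spike-in rows and keeps Rn45s. Totals ran from 271190 to 1226521 counts per cell with spike-ins, so a share of 1.80% carries a counting error near 0.876% of its value. Pooled levels sum counts over cells, and intervals are exact (95%). With 1 pool of animals no test was made; doublets were not called. The members and lists were chosen with earlier results of these data known.

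Transcript lengths, shared 50-base windows and coordinates come from GENCODE vM21 (GRCm38), in which all 84 members were matched, Rps3a as Rps3a1 and Rps4y2 as Rps4l. The transcript per gene is the shortest of those best supported and linked to RefSeq, a rule revised after an earlier one gave implausible lengths, and those of Rps15a (5179 bases) and Rps20 (3706) remain long. Promoter windows come from RefSeq.

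Some members and other genes are not reported here. Members named are the 10 highest per CPM and per kilobase, the 5 highest and lowest in excess, those read in under 50% of cells, suffix copies with their namesakes, called genes, and the 5 highest and lowest ratios at 100 CPM. Other genes named are the 10 highest and lowest by rho with the member share and leading list genes. Alternatives covered scaling, Rn45s, class limits, thinning to 250000 counts, pseudocount, filter, fold and plate. On simulated counts of the G2/M comparison, 37.4% of the 198 genes raised 2-fold (among 7504 tested) and 75.8% of the 198 raised 4-fold (among 7477) were called. Versions were Python 3.11.15, numpy 2.4.6, pandas 2.3.3, scipy 1.17.1 and matplotlib 3.10.9.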

Additional observations from a re-analysis of the deposited data

Results flagged for a closer look

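Rpl34-ps1, a row named as a pseudogene of the large subunit gene Rpl34 and outside the naming rule, was read at 29.2 pooled CPM and in 96.5% of the 143 cells, with a median of 27.4 and a highest cell of 73.9 CPM. It is given here because its signal lies outside the genes described and no control cells exist. Rpl34 itself stood at 18.5 pooled CPM in 44.1% of cells. Both rows had reads in 61 cells, Rpl34-ps1 alone in 77 and Rpl34 alone in 2. Of the 50-base windows of Rpl34, 50.6% occur in other genes, and how the counts were split between such copies was not tested.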

How the results depend on the processing

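The number of members read in at least 90% of cells stayed between 70 and 73. The share of 1.80% became 1.99% without Rn45s, 1.76% without copies with a suffix, 1.81% as a mean of cell shares and 1.81% without the 14 cells with the fewest genes. The median excess of -2.10 was -2.79 on the variance of log2(CPM + 1), -2.08 with all genes read, -2.06 without Rn45s, -1.72 per spike-in count, -2.03 and -1.94 by plate and -2.0 without those 14 cells. For S over non-cycling the log2 ratio of shares, 0.065, was 0.058 without Rn45s, 0.41 per spike-in count, 0.026 and 0.081 with looser and stricter class limits, 0.11 thinned, 0.034 and 0.14 by plate and 0.060 without those cells. For G2/M, 0.077 became 0.065 without Rn45s, 0.55 per spike-in count, 0.040 and 0.089 with looser and stricter limits, 0.085 thinned, and 0.049 and 0.15 by plate. For RNA content, 0.019 turned to -0.00038 without Rn45s and to -0.067 on plate 2, the cause of which was not tested. It was 0.95 per spike-in count, 0.059 on plate 1, 0.085 in non-cycling cells, 0.0035 with members and Rn45s left out of the RNA measure and 0.0015 without those 14 cells. The rho of 0.025 was 0.12 on plate 1, -0.12 on plate 2 and 0.0063 with that RNA measure. In non-cycling cells it was 0.016, but 0.27 on plate 1 and -0.19 on plate 2. The small over large ratio of 0.780 was 0.777 on plate 2, 0.773 without suffix copies and 0.868 per kilobase. Members called were 2, 6 and 3 (S, G2/M, RNA) at the lower fold limit tried, with 2 of the 6 lower, beside 26.3%, 36.5% and 31.3% of all genes in either direction. Per spike-in count they were 4, 25 and 74, all higher, beside 15.4%, 28.5% and 50.7% of all genes higher. At 2-fold, where 7.79%, 13.5% and 9.81% of all genes were called, and for G2/M without those 14 cells, 0 were called. The alternatives without those cells, those in non-cycling cells for calls and those at 100 CPM were chosen after seeing the data. No paired analysis was possible because all cells form 1 group. The depth limits what can be said of Rpl39l, Rpl10l and Rpl3l.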
